A study of Mus musculus with 2 samples.

Results

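The Ly6 genes described here are Ly6a, Ly6c2, Ly6d, Ly6e and Ly6i, 5 of the 32285 genes counted in a single-cell RNA sequencing study of islet leukocytes. They were taken by gene symbol, and the set was chosen because Ly6a had been seen to be lower by a like amount in the large cell classes of 1 of the libraries. Levels and differences of these genes are therefore a description of the libraries and are not tested. Live CD45+CD31- cells had been sorted from hand-picked pancreatic islets of female mice aged 12 weeks, either NOD, the strain that develops autoimmune diabetes, or NOD.Cxcl16-/-, on the same strain background. Each of the 2 groups has 1 library, a droplet library of the 10x Genomics 3' kind. The labels name no animals, so whether a library is a pool of several mice is unknown, and no difference below has a replicate check.

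The Ly6 proteins are small members of the Ly6/uPAR superfamily, which share a fold of stacked loops held by disulphide bonds, and most sit on the cell surface by a GPI anchor. Ly6a encodes Sca-1, known as a marker of blood stem cells and as a protein that interferon induces on lymphocytes. Ly6c2 encodes a form of Ly-6C, by which mouse monocytes are divided into classes, and Ly6d marks early B-lineage cells. Ly6e is an interferon-inducible protein known for its part in viral entry, and Ly6i is a relative of Ly6c known from monocytes and macrophages. NOD mice are known for lacking Ly-6C on their lymphocytes.

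All the 5 genes lie on chromosome 15 of the mouse build GRCm38. Ly6d (ENSMUSG00000034634) spans 74762056 to 74763620 on the minus strand and Ly6e (ENSMUSG00000022587) spans 74955051 to 74959905 on the plus strand. Ly6i (ENSMUSG00000022586), at 74979534 to 74983430, Ly6a (ENSMUSG00000075602), at 74994877 to 74998031, and Ly6c2 (ENSMUSG00000022584), at 75108158 to 75111970, are on the minus strand. Between Ly6a and Ly6c2 lies Ly6c1 (75044018 to 75048830, minus strand), the other Ly-6C gene. Because 3' libraries read the ends of transcripts, the last 300 bases of the annotated transcripts were aligned in pairs. Those of Ly6c1 and Ly6c2 shared 98.0% of their 293 aligned bases, against 86.3% for Ly6a and Ly6i, 87.6% for Ly6c2 and Ly6i and 84.4% for Ly6a and Ly6c2. Ly6d and Ly6e stood apart, at 64.8% and 61.8% identity to Ly6a. Counts of Ly6c2 are thus uncertain, since reads from its near-identical copy could have been split between the 2 genes or dropped as ambiguous.

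Promoter windows were at hand for 1 of the 5 genes, Ly6c2, and for Ly6c1, from RefSeq on GRCm38.p6, each from 250 bases before to 50 bases after an annotated start. They are shown because this pair has the closest transcript ends. The Ly6c2 window lies at chr15:75111922-75112221 and that of Ly6c1 at chr15:75048788-75049087, both on the minus strand and printed 5′ to 3′. Capitals mark matches to GAGGAAGT, a form of the motif bound by ETS factors such as PU.1, searched on both strands.
Ly6c2: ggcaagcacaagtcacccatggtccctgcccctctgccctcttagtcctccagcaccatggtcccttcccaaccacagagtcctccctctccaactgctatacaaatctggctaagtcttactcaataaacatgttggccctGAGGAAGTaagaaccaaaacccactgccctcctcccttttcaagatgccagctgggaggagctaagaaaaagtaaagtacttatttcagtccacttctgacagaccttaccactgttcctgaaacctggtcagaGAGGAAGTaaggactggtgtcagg
Ly6c1: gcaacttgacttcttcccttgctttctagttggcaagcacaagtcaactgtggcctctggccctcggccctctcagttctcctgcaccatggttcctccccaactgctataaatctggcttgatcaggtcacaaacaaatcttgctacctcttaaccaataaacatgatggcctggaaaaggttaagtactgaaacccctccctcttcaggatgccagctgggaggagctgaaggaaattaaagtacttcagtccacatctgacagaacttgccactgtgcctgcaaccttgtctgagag
The windows aligned over 266 bases with 78.2% identity. The Ly6c2 window held 2 matches to GAGGAAGT and that of Ly6c1 held 0, where 3.20% of 32851 promoter windows of the same length hold a match. A second annotated start gives Ly6c2 a window at chr15:75111888-75112187, with the same 2 matches, and Ly6c1 one at chr15:75048614-75048913, with 1. The Ly6c1 window printed above ends inside that match, so its count of 0 depends on where the window was cut. This motif was chosen after the windows had been seen. The letters of the interferon-stimulated response element (3.44% of all windows) and of the gamma-activated site TTCNNNGAA (8.30%), searched on both strands, were in none of the 4 windows. These are matches of letters and not binding sites. The windows and the transcript ends above are those of the reference build, and the NOD sequence was not examined.

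Barcodes numbered 13859 in the WT NOD library (called WT NOD below), with 93553185 UMIs in all, and 10554 in the one labelled NOD.Cxcl16-/-, with 98681133 UMIs. After filters, 10716 and 9323 cells were kept, with medians of 3856.5 and 4886 UMIs, and 33 cell barcodes occurred in both. Cxcl16 transcript stood at 77.3 CPM (counts per 1000000 UMIs) in WT NOD and at 97.0 CPM in the other. In macrophage-like cells, which made up 0.607% and 1.81% of kept cells, it was lower in the other, with 816 CPM (753 to 883) and 524 CPM (493 to 557). Transcript was thus counted in both libraries. Whether this goes against the label cannot be told, since the part of the gene that was deleted is not given in the sources used here. The library labelled NOD.Cxcl16-/- is therefore called by its label, and no direction below is tied to the genotype. Ptprc, which encodes CD45, stood at 550 and 545 CPM, and Pecam1, which encodes CD31, at 53.8 and 45.2 CPM. Each cell was put in a class by marker genes that include no Ly6 gene, and 39.6% and 33.0% of kept cells fell in none. Of 15 classes, 10 held at least 50 cells in each library, and 4 held at least 200 and are called large: CD8 T-like (2530 and 1543 cells), CD4 T-like (1274 and 1314), Treg-like (256 and 417) and B-like (1726 and 1974). All intervals below are exact, at the 95% level, and cover counting error only. They do not cover the differences between cells or animals.

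Ly6a was found in every class and was lower in the library labelled NOD.Cxcl16-/- in each of the large classes. CD8 T-like cells had 560 CPM (interval 549 to 572, 9157 UMIs) in WT NOD and 413 CPM (401 to 424, 5159 UMIs) in the library labelled NOD.Cxcl16-/-. In CD4 T-like cells the levels were 405 CPM (390 to 420) and 273 CPM (262 to 284), and in Treg-like cells, the regulatory T cells marked by Foxp3, 912 CPM (865 to 961) and 643 CPM (615 to 671). B-like cells had 689 CPM (671 to 707) and 458 CPM (445 to 471). The intervals of the libraries did not overlap in any of these 4 classes. Treg-like cells had the highest level of the 4 in both libraries and CD4 T-like cells the lowest.

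The log2 ratio of Ly6a, library labelled NOD.Cxcl16-/- over WT NOD, was -0.44 (-0.49 to -0.39) in CD8 T-like, -0.57 (-0.65 to -0.49) in CD4 T-like, -0.51 (-0.60 to -0.41) in Treg-like and -0.59 (-0.65 to -0.53) in B-like cells. The level in the library labelled NOD.Cxcl16-/- was thus between 66.5% and 73.6% of the WT NOD level. The median ratio of all genes measured (a mean of at least 10 CPM and at least 50 UMIs in the class) lay between 0.02 and 0.05 in these classes. The share of measured genes with a ratio below that of Ly6a was 1.41% in CD8 T-like, 1.03% in CD4 T-like, 5.54% in Treg-like and 0.749% in B-like cells. A difference of 1.5-fold or more, the size used for counts here, was reached by 0 of 2 measured members in CD8 T-like cells, where 0.644% of 7456 genes were that much lower. The count was 0 of 2 in CD4 T-like cells (background 0.881%) and in Treg-like cells (3.63%), and 1 of 3, Ly6a itself, in B-like cells (0.79%). Since the gene was chosen on these ratios, nothing is read from the counts.

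Markers of other cells that the sort could have held were summed in the same classes. The 7 endocrine markers, which include the insulin genes, summed to 46.0 and 260 CPM in CD8 T-like cells, 468 and 284 in CD4 T-like, 235 and 171 in Treg-like and 99.8 and 136 CPM in B-like cells. Their sum was thus higher in the library labelled NOD.Cxcl16-/- in 2 of the classes and lower in the other two, while Ly6a was lower in all 4. The 7 endothelial markers summed to 24.4 and 28.0 CPM in CD8 T-like, 69.1 and 57.8 in CD4 T-like, 46.9 and 41.7 in Treg-like and 134 and 107 CPM in B-like cells. That sum was lower in the library labelled NOD.Cxcl16-/- in 3 of the 4 classes, but it was mostly 1 gene. Over all kept cells Pecam1 alone made up 53.8 and 45.2 CPM of the summed 58.4 and 50.1 CPM. In Treg-like cells 6 of the 7 markers were at 0 in WT NOD and 4 in the other. The part of these transcripts in the Ly6a levels was not tested.

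The share of cells with a Ly6a UMI gave the same order of the libraries. Cells were first thinned to 2000 UMIs each, and shallower cells were left out, 536 and 87 of them in CD8 T-like cells. A Ly6a UMI was then seen in 49.9% (47.7 to 52.1) of CD8 T-like cells of WT NOD and in 39.4% (36.9 to 42.0) of the other, against 65.3% and 57.4% without thinning. In B-like cells the thinned shares were 46.5% (44.0 to 49.1) and 31.6% (29.5 to 33.8), with 177 and 91 cells left out and unthinned shares of 59.8% and 44.4%. CD4 T-like cells had 31.7% (29.0 to 34.5) and 23.0% (20.7 to 25.4), with 123 and 42 left out and 44.0% and 37.2% unthinned. The Treg-like shares, 56.5% (49.8 to 63.0) and 49.3% (44.3 to 54.3), had intervals that overlapped, with 26 and 15 cells left out and 68.4% and 65.7% unthinned. Cells with 3 or more Ly6a UMIs after thinning made up 18.0% and 11.9% of CD8 T-like, 8.86% and 6.29% of CD4 T-like, 26.1% and 17.2% of Treg-like and 17.3% and 9.61% of B-like cells.

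Among the smaller classes Ly6a did not follow 1 direction. Plasma cell-like cells had 2550 CPM (2473 to 2629) in WT NOD and 1407 CPM (1370 to 1444) in the other, a log2 ratio of -0.86, in a class where the median of all genes was 0.33. Macrophage-like cells had 1301 CPM (1221 to 1385) and 564 CPM (531 to 598), a ratio of -1.21 (-1.33 to -1.08). Classical monocyte-like cells had 2318 CPM (2197 to 2445) and 1044 CPM (973 to 1120), a ratio of -1.15 (-1.28 to -1.02). With classes taken from clusters the ratio was -0.43 in macrophage-like and -0.46 in plasma cell-like cells, nearer to 0 than with classes from markers. Cluster 6, in which Ly6a stood at 2159 and 1298 CPM, held 20% of the macrophage-like cells of WT NOD and 5.92% of the other, and cluster 10, at 1167 and 864 CPM, held 78.5% and 94.1%. The monocyte-like and macrophage-like values rest on few cells: the 5 cells with the most Ly6a UMIs held 42.7% and 36.1% of the macrophage-like and 38.7% and 40.1% of the classical monocyte-like UMIs of the gene, against 3.57% and 7.68% in CD8 T-like cells. These shares were 7.86% and 7.51% in B-like, 16.3% and 13.3% in CD4 T-like and 19.9% and 13.3% in Treg-like cells. In plasma cell-like cells they were 25.3% and 17.5%. In macrophage-like cells the thinned share of cells with a UMI was 56.7% (43.2 to 69.4) and 27.2% (20.4 to 34.9), with 5 and 11 cells left out and 70.8% and 43.2% unthinned.

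Migratory DC-like cells, dendritic cells marked by Ccr7 and Fscn1, whose 10 leading genes also held the endocrine hormone genes Ppy and Pyy, had 2079 CPM (1987 to 2173) and 1689 CPM (1621 to 1759), a ratio of -0.30, and NK-like cells had 756 and 640 CPM with intervals that overlapped (658 to 865 and 552 to 739). In γδ T-like cells Ly6a was higher in the library labelled NOD.Cxcl16-/-, with 1491 CPM (1395 to 1591) against 1155 CPM (1080 to 1233), a ratio of 0.37 (0.23 to 0.50). The share of γδ T-like cells with a UMI was not higher there. Thinned, it was 66.4% (57.9 to 74.3) in WT NOD and 61.5% (52.1 to 70.4) in the other, with 9 and 0 cells left out. Unthinned shares were 86.3% and 79.5%. Cells with a UMI held a mean of 3.20 and 5.26 UMIs after thinning. The 5 cells with the most Ly6a UMIs held 24.9% and 26.9% of them in this class. The γδ T-like cells fell into the same main clusters in the 2 libraries but in different shares. Cluster 18, in which Ly6a stood at 3189 and 3319 CPM, held 19.2% of the γδ T-like cells of WT NOD and 38.5% of the other, and cluster 12, at 819 and 701 CPM, held 52.7% and 48.7%. Over all their cells, γδ T-like or not, these clusters had ratios of 0.06 and -0.22. Of the cells of cluster 18, 43.3% were put in a class, and 83.9% of those were γδ T-like. In cluster 12 the figures were 46.5% and 40%. The ratios by cluster are thus not those of γδ T-like cells alone.

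The order of the classes by Ly6a level also differed between the libraries. In the WT NOD library plasma cell-like cells led, followed by classical monocyte-like, migratory DC-like and macrophage-like cells, and CD4 T-like cells were last. Of the 9 pairs of neighbours in that order, 7 had intervals that did not overlap, the exceptions being macrophage-like with γδ T-like and NK-like with B-like cells. In the library labelled NOD.Cxcl16-/- migratory DC-like cells led, and macrophage-like cells stood between NK-like and B-like cells. There 6 of the 9 pairs did not overlap. CD8 T-like and CD4 T-like cells had the lowest levels in both libraries.

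**Figure D1:**
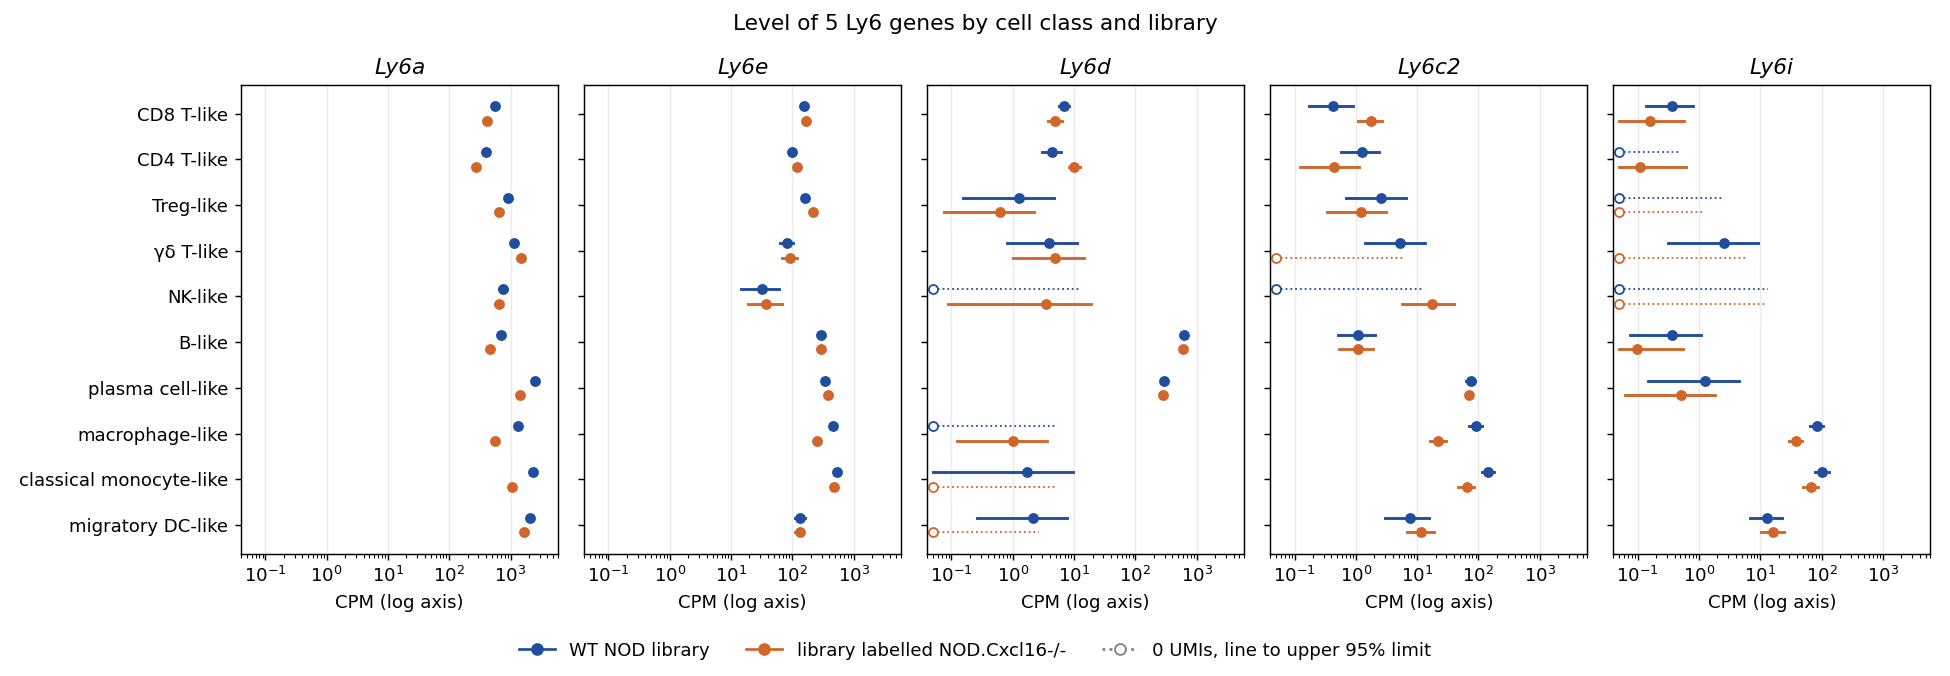
Level of each of the 5 genes in CPM (log axis) in 10 cell classes, with points for the libraries, lines for the exact 95% Poisson interval and open points at the left edge for 0 UMIs. Ly6a was measured in all 10 classes and Ly6e in all but NK-like cells, Ly6d was at 617 and 609 CPM in B-like cells and under 11 CPM in T-like classes, and Ly6c2 and Ly6i were highest in classical monocyte-like and macrophage-like cells of WT NOD.

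**Figure D2:**
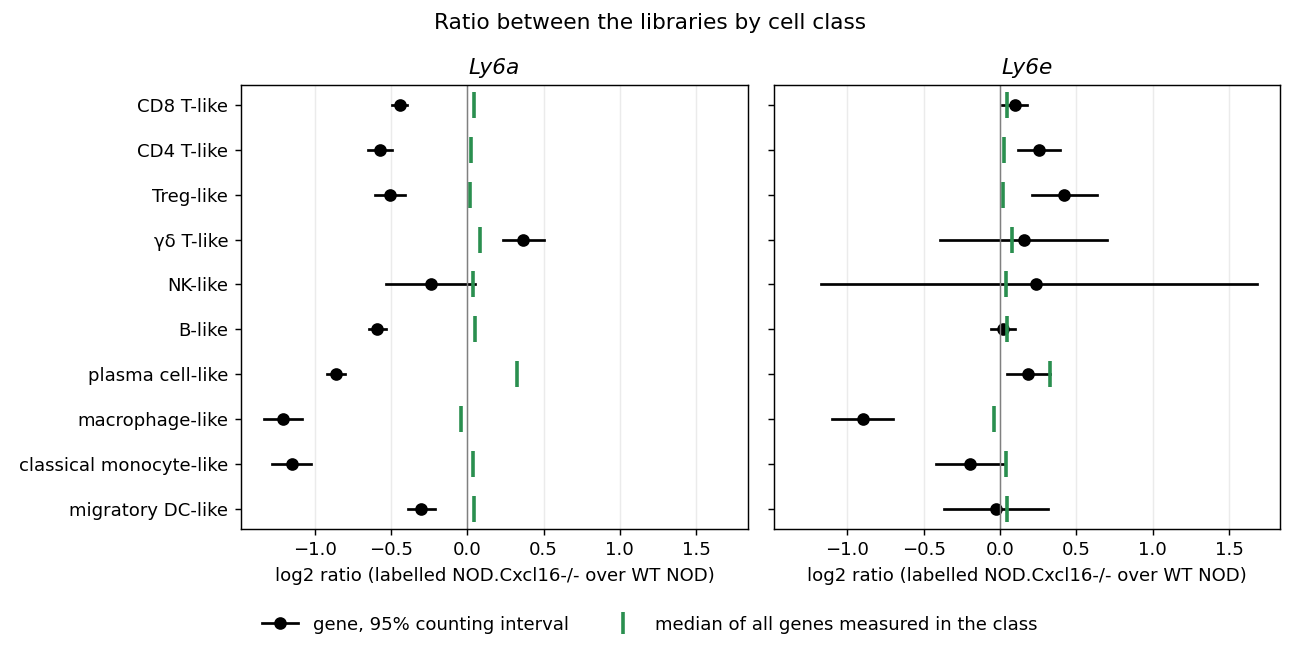
Log2 ratio of Ly6a and Ly6e, library labelled NOD.Cxcl16-/- over WT NOD, by cell class, with the 95% counting interval as a line and the median of all genes measured in the class as a green mark. Ly6a lies below 0 in 9 of the 10 classes and above it in γδ T-like cells, and Ly6e lies below 0 in macrophage-like cells (-0.90) with its interval.

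Below the level of classes, Ly6a was compared in clusters that had been made without the Ly6 genes. It was lower in the library labelled NOD.Cxcl16-/- in 18 of 20 clusters with at least 50 cells in each library, and in 17 of them the interval of the ratio lay below 0. The exceptions were cluster 18 and cluster 17, where cDC1-like cells, the dendritic cells specialised in presenting antigen to CD8 T cells, were the leading class. In cluster 17 Ly6a stood at 1541 and 1663 CPM, a ratio of 0.11 (0.04 to 0.18). Since the clusters share cells with the classes for which Ly6a was chosen, the counts of clusters are a description only. The clusters covered a wide range of levels. The lowest were 99.5 CPM in WT NOD, in cluster 14, and 63.2 CPM in the other, in cluster 7, both of CD4 T-like cells, and the highest were those of cluster 18, of γδ T-like cells. The widest gap was in cluster 7, with 150 and 63.2 CPM and a ratio of -1.25 (-1.48 to -1.01). The classes with under 50 cells in a library are given as values only: Ly6a stood at 1218 and 1844 CPM in cDC1-like cells (49 and 79 cells), 1901 and 1154 CPM in cDC2-like cells (35 and 96) and 2223 and 1469 CPM in plasmacytoid DC-like cells (54 and 47). ILC2-like cells (22 and 59) had 1119 and 1409 CPM, and non-classical monocyte-like cells (16 and 29) had 2294 and 1345 CPM.

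**Figure D3:**
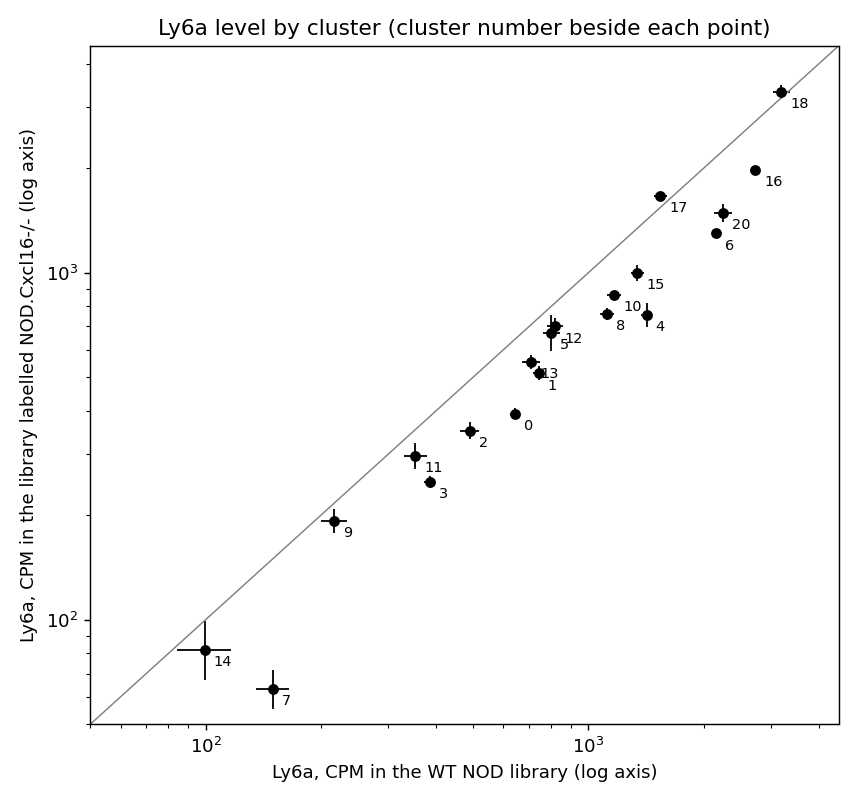
Ly6a in CPM by cluster, the WT NOD library on the x axis and the library labelled NOD.Cxcl16-/- on the y axis (both log axes), with exact 95% Poisson intervals and a line of equal level. Of the 20 clusters, 18 lie below the line, and clusters 17 and 18 lie above it.

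States within the classes were compared to see whether 1 of them carried the gap. CD8 T-like cells with effector markers (Ccl5, Gzmk, Nkg7 or Ifng) had 737 and 502 CPM of Ly6a in 1789 and 1191 cells, and cycling ones had 351 and 280 CPM in 652 and 283 cells. Ly6a was thus lower in cycling than in effector-marker cells in each library, and within each state it was lower in the library labelled NOD.Cxcl16-/-. In CD4 T-like cells the levels were 451 and 296 CPM with effector markers and 351 and 237 CPM in cycling cells. B-like cells with Fcer2a, which encodes the low-affinity IgE receptor of follicular B cells, had 564 and 367 CPM, and those with Bhlhe41 or Zbtb32, transcription factors known from B-1a and memory B cells, had 721 and 599 CPM. Across the 9 states compared in the 4 large classes the ratio of Ly6a ran from -0.62, in B-like cells with Fcer2a, to -0.27, in B-like cells with Bhlhe41 or Zbtb32, and the interval of each lay below 0. The states are parts of the classes for which Ly6a was chosen, so their shared direction is no further evidence.

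Of 6402 genes measured in each of the 4 large classes, 592 were lower by any amount in all 4 in the library labelled NOD.Cxcl16-/-. Of the 6402, 11 (0.172%) were at least 1.5-fold lower in every one, and Ly6a was not among these. With 1.3-fold as the limit, chosen after the values had been seen so that Ly6a would be included, there were 20 (0.312%). At least 1.3-fold higher in each were 27 genes (0.422%). The smallest difference of Ly6a, that in CD8 T-like cells, was reached in all 4 classes by 17 genes, Ly6a included.

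Of the 11 genes past 1.5-fold, Ifi27l2a, Isg15 and Xaf1 were on the type I interferon list described below. Ifi27l2a had ratios of -0.84, -0.71, -0.78 and -0.91 in CD8 T-like, CD4 T-like, Treg-like and B-like cells. Isg15, a ubiquitin-like protein of the antiviral response, had -0.99, -0.67, -1.29 and -0.78. Xaf1 ran from -1.38 to -0.67, Ifi206 from -1.09 to -0.78 and Ifi214 from -1.76 to -0.73, the latter 2 being interferon-inducible genes of a family on chromosome 1 that includes DNA sensors. The others were Ubb, Trim5, Gstp1, Hist1h2ap and the unnamed genes Gm10260 and Gm10076. Of these Ubb ran from -0.81 to -0.70, Gm10260 from -1.32 to -1.14 and Gm10076 from -0.95 to -0.75. Gstp1, a glutathione transferase, had -1.49 in CD8 T-like and -1.40 in Treg-like cells. Among the 20 genes past 1.3-fold, the gap from lowest to highest class was smallest in Rpl35 (0.096, ratios from -0.68 to -0.58). Ubb (0.117) and Ly6a (0.148) came next. Ly6a was the only 1 of the 20 genes on chromosome 15, which holds 234 of the 6402 genes measured. Nothing about the locus is read from this.

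**Figure D4:**
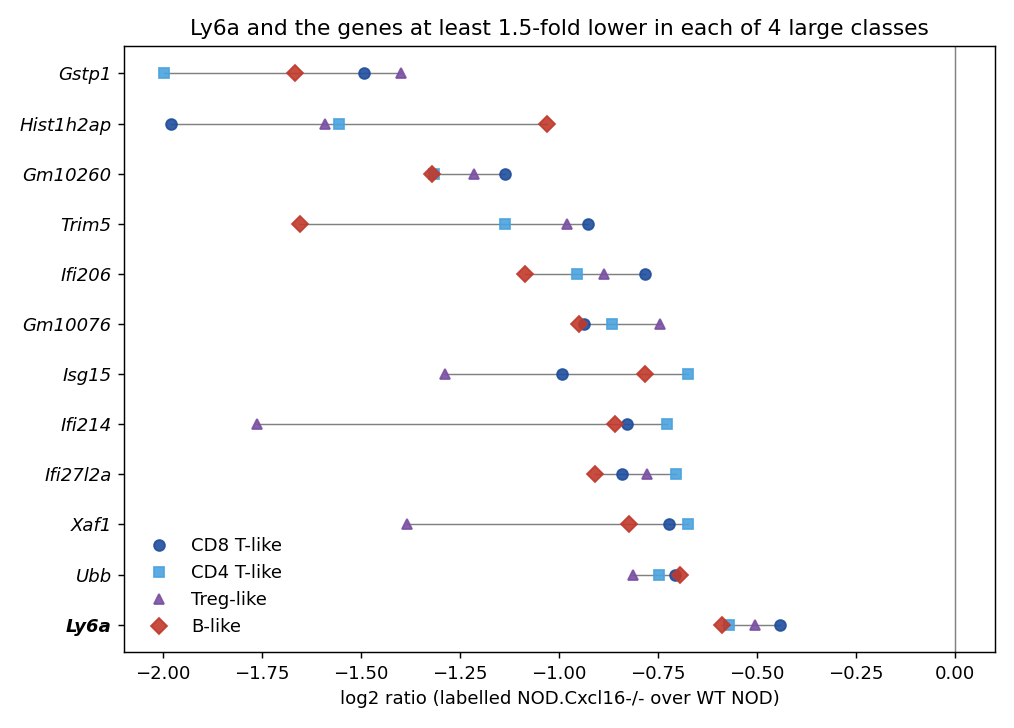
Log2 ratio (library labelled NOD.Cxcl16-/- over WT NOD) in the 4 large classes for Ly6a and the 11 genes at least 1.5-fold lower in each, 12 genes in all, with a line from the lowest to the highest class. The 4 points of Ly6a lie between -0.59 and -0.44.

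The type I interferon list, genes induced through the interferon-alpha receptor, was counted beside Ly6a. It was chosen with earlier results of these data known, so it is no independent evidence of its direction. In CD8 T-like cells 17 of its genes were measured, of which 6 were at least 1.5-fold lower and 0 higher, with a median ratio of -0.37. In CD4 T-like cells 4 of 16 were lower (median -0.42), in Treg-like cells 9 of 16 (median -0.62) and in B-like cells 4 of 13 (median -0.33), and none was 1.5-fold higher. Of all genes measured in the 4 classes, 0.644%, 0.881%, 3.63% and 0.79% were 1.5-fold lower, and 1.5%, 1.46%, 4.51% and 1.47% that much higher. The lowest over the 4 classes were Isg15, Ifi27l2a and Irf7, a transcription factor that amplifies the response, with median ratios of -0.89, -0.81 and -0.78. The highest were Stat2 (0.01), a signal transducer of the same receptor, and Parp14 (-0.04).

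The list of genes that interferon-gamma induces did not show this shift. Its medians were 0.03 in CD8 T-like, 0.03 in CD4 T-like, -0.07 in Treg-like and 0.05 in B-like cells, close to those of all genes. Of its 20 or 21 measured genes, 0 were 1.5-fold lower in CD8 and CD4 T-like cells, 2 in Treg-like and 1 in B-like cells, and 1 was 1.5-fold higher in each of CD8 T-like, CD4 T-like and Treg-like cells and 0 in B-like cells, against the shares of all genes given above. Tgtp2 (-0.37), Gbp6 (-0.34) and Iigp1 (-0.24), GTPases that act against pathogens within vacuoles, had the lowest medians over the classes, and Serpina3g (0.29) and Gbp5 (0.28) the highest. Of 15 other GPI-anchored leukocyte proteins, between 5 and 10 were measured, 0 were 1.5-fold lower in any of the 4 classes, 1 was that much higher in CD8 T-like and 1 in Treg-like cells, and the medians lay between -0.09 and 0.03.

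Cells were then divided by how many type I interferon genes were seen in them after thinning to 2000 UMIs. In CD8 T-like cells Ly6a stood at 426 CPM (WT NOD) and 332 CPM where 0 were seen, 475 and 375 CPM where 1 to 2 were seen and 936 and 734 CPM where 3 or more were seen. In B-like cells the levels were 356 and 228, 520 and 364, and 1037 and 587 CPM. Cells with 3 or more made up 39.4% and 28.3% of CD8 T-like and 26.3% and 20.2% of B-like cells, and 37.9% and 28.9% of CD4 T-like cells. Ly6a was higher in cells with 3 or more of these genes than in cells with 1 to 2 in each of the 4 large classes and both libraries. Within cells that had 3 or more, the ratio between the libraries was -0.35 (-0.49 to -0.21) in CD8 T-like, -0.51 in CD4 T-like, -0.55 in Treg-like and -0.82 (-0.99 to -0.65) in B-like cells. Where 1 to 2 were seen it was -0.34, -0.31, -0.22 and -0.52, with an interval that reached above 0 in Treg-like cells (-0.52 to 0.09). Where 0 were seen the interval reached above 0 in CD8 T-like cells (a ratio of -0.36, from -0.72 to 0.0033) and in Treg-like cells, of which there were 6 and 18, and lay below 0 in B-like cells (-0.64, from -0.96 to -0.33). CD4 T-like cells with 0 of the genes were few (49 and 80) and had 408 and 100 CPM.

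**Figure D5:**
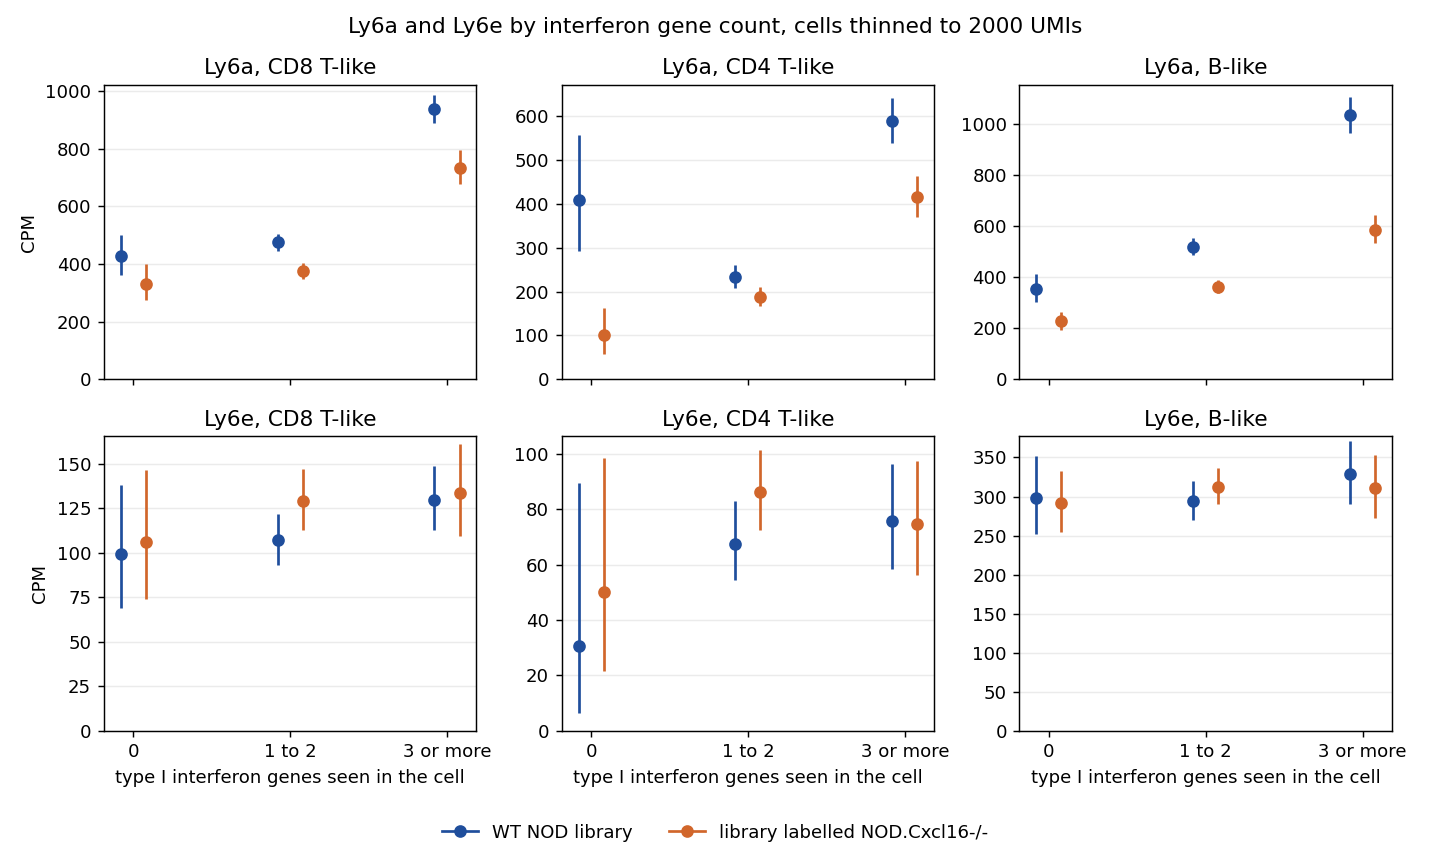
Ly6a (upper row) and Ly6e (lower row) in CPM by the number of type I interferon genes seen in a cell thinned to 2000 UMIs, in CD8 T-like, CD4 T-like and B-like cells, with exact 95% Poisson intervals. Ly6a is highest with 3 or more genes seen and lower in the library labelled NOD.Cxcl16-/- at each step, and the Ly6e intervals of the libraries overlap at each step.

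Ly6e, though also known to be induced by interferon, did not share the direction of Ly6a in lymphocytes. It stood at 158 CPM (152 to 164) and 169 CPM (161 to 176) in CD8 T-like cells, at 100 CPM (93.0 to 108) and 120 CPM (113 to 127) in CD4 T-like cells and at 161 CPM (142 to 182) and 216 CPM (200 to 233) in Treg-like cells. In B-like cells it stood at 292 CPM (280 to 304) and 296 CPM (286 to 307). The ratios were 0.10, 0.26, 0.42 and 0.02, none of them below 0, and the intervals of the libraries did not overlap in CD4 T-like and Treg-like cells. The direction in T-like cells was not stable: without cycling cells the ratio was -0.070 in Treg-like cells, and with the mean of each cell's CPM in place of the class sum it was -0.079 in CD8 T-like and -0.069 in CD4 T-like cells. Thinned shares of cells with a Ly6e UMI were 18.2% and 19.3% in CD8 T-like and 42.8% and 41.5% in B-like cells, with intervals that overlapped in each (unthinned 36.0% and 42.9%, and 64.8% and 66.1%).

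In T-like classes Ly6e was higher in cycling cells than in the cells they were set beside. In CD8 T-like cells Ly6e was at 247 and 281 CPM in cycling cells against 75.5 and 87.7 CPM in those with effector markers, and in CD4 T-like cells at 166 and 210 against 80.9 and 87.2 CPM. In Treg-like cells it was at 237 and 340 CPM in cycling cells (29 and 67) against 127 and 121 CPM in the others. Ly6a was lower in cycling than in effector-marker CD8 and CD4 T-like cells and than in other Treg-like cells, so in T-like classes the 2 genes differed in opposite directions along this axis. B-like cells showed no such gap for Ly6e, with 306 and 298 CPM in cycling cells and 302 and 322 CPM in those with Fcer2a. Their Ly6a was higher in cycling cells (25 and 64), at 881 and 672 CPM against 564 and 367 CPM with Fcer2a.

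In macrophage-like cells Ly6e, like Ly6a, was lower in the library labelled NOD.Cxcl16-/-. They had 469 CPM (421 to 520) in WT NOD and 252 CPM (230 to 275) in the other, a ratio of -0.90 (-1.10 to -0.70). Classical monocyte-like cells had 542 CPM (484 to 605) and 472 CPM (424 to 524), which overlapped, and migratory DC-like cells had 134 and 131 CPM. In macrophage-like cells all the 4 measured members, Ly6a, Ly6c2, Ly6e and Ly6i, were at least 1.5-fold lower, where 7.22% of 5432 genes were. This did not hold under every alternative. The macrophage-like Ly6a ratio was -0.43, short of 1.5-fold, with classes from clusters. That of Ly6c2 was 0.32 without cycling cells, and 5 cells held 97.1% and 79.5% of its UMIs. In classical monocyte-like cells 3 of 4 members were at least 1.5-fold lower, all but Ly6e, against 6.41% of genes. Among these the Ly6i ratio, -0.60 (-1.16 to -0.03), was close to the limit and was -0.32 without cycling cells. The Ly6c2 ratio, -1.19, was -0.49 with thinning, and 5 cells held 62.4% and 58.3% of its UMIs. Both were then short of 1.5-fold. In plasma cell-like cells 1 of 4 was 1.5-fold lower, Ly6a, against 4.45%. Plasma cell-like Ly6e was at 338 and 384 CPM, a ratio of 0.19 that became -0.047 when immunoglobulin and T-cell receptor genes were left out of the total.

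Ly6c2 was counted in few classes at this depth. Classical monocyte-like cells had 145 CPM (116 to 180, 85 UMIs) in WT NOD and 63.9 CPM (47.1 to 84.7, 48 UMIs) in the other, a ratio of -1.19 (-1.73 to -0.66). Macrophage-like cells had 91.4 CPM (71.1 to 116) and 22.0 CPM (16 to 29.5), from 69 and 44 UMIs. A single macrophage-like cell held 30 of those 69 UMIs and 7 cells held them all, and without cycling cells the ratio turned from -2.05 to 0.32. Plasma cell-like cells had 74.6 CPM (61.9 to 89.1) and 71.1 CPM (63.0 to 79.9), spread over 45 and 71 cells. Plasmacytoid DC-like cells, with 54 and 47 cells, had the highest level of the gene, 275 and 216 CPM. In T-like and B-like classes the gene was near the limit of detection, with 9 and 11 UMIs over all B-like cells (1.10 and 1.07 CPM) and 7 and 22 over all CD8 T-like cells (0.43 and 1.76 CPM).

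Ly6c1, whose end is nearly the same as that of Ly6c2, was counted with 104 and 95 UMIs over all kept cells. It stood at 10.6 and 2.50 CPM in macrophage-like cells (8 and 5 UMIs) and at 50.9 CPM (31.1 to 78.6) and 12.0 CPM (4.41 to 26.1) in plasmacytoid DC-like cells.

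Ly6i was found in monocyte-like and macrophage-like cells. Its level was 103 CPM (78.2 to 132) and 67.9 CPM (50.5 to 89.2) in classical monocyte-like cells, with 60 and 51 UMIs, and 83.5 CPM (64.1 to 107) and 38.0 CPM (29.95 to 47.6) in macrophage-like cells, with 63 and 76 UMIs. The ratios were -0.60 (-1.16 to -0.03) and -1.13 (-1.64 to -0.63). Unlike the UMIs of Ly6c2, those of Ly6i in macrophage-like cells were spread over 24 and 28 cells. Migratory DC-like cells had 12.9 and 16.1 CPM, and B-like cells 3 UMIs and 1 UMI in all, so that in T-like and B-like cells the gene was at or under what these depths can show (0 UMIs in Treg-like cells, where 3 counts would be 1.93 and 0.92 CPM).

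Ly6d was measured in the B lineage and nearly equal between the libraries there. B-like cells had 617 CPM (600 to 634, 5048 UMIs) and 609 CPM (594 to 624, 6262 UMIs), a ratio of -0.02 (-0.07 to 0.03). Plasma cell-like cells had 298 CPM (272 to 326) and 285 CPM (269 to 303), and plasmacytoid DC-like cells had 608 CPM (533 to 690) and 810 CPM (733 to 893). In the same B-like cells Ly6a was at 66.5% of the WT NOD level and Ly6d at 98.6%. The thinned shares of B-like cells with a Ly6d UMI were 57.2% (54.7 to 59.7) and 54.5% (52.3 to 56.8), which overlapped (70.9% and 68.7% unthinned). By state, B-like cells with Fcer2a had 2461 and 2941 UMIs and a ratio of 0.01, and cycling B-like cells had a ratio of -0.21 (-0.52 to 0.10).

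Few T-like or macrophage-like cells had a Ly6d UMI. After thinning, 1.5% and 0.412% of CD8 T-like cells had one. Before thinning the shares were 3.20% and 0.907%, in cells with medians of 4637.5 and 5541 UMIs. In Treg-like cells the thinned share was 0% in both libraries, where 3 cells would be 1.3% and 0.746%, and the unthinned shares were 0.781% and 0.480% at medians of 4333.5 and 4836 UMIs. The level in CD4 T-like cells was 4.36 CPM in WT NOD and 10.1 CPM in the other, but 1 cell held 74 of the 91 UMIs of the latter, and 1 CD8 T-like cell held 47 of 62. Macrophage-like cells had 0 and 2 UMIs.

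Likeness of pattern was measured as Pearson's r of log2(CPM + 1) over the 20 sums of 10 classes and 2 libraries, among 7880 genes. These points share libraries and totals, so r is a description. Ly6a was most like Epcam (0.78), Slc33a1 (0.74) and Sec61g (0.74), and Ly6c2 was most like Rrbp1 (0.88), Ufsp2 (0.87) and Ift22 (0.85). Ly6d was most like Ebf1 (0.94), a B-lineage transcription factor that is also one of the markers by which B-like cells were gated, Vpreb3 (0.94) and Bcar3 (0.93). Ly6e was most like Nucb2 (0.86), March1 (0.84) and P2rx4 (0.83), and Ly6i was most like Cfb (0.98), Lst1 (0.96) and Slc7a11 (0.96). Among the members the closest pair was Ly6c2 with Ly6i (0.73), followed by Ly6a with Ly6c2 (0.61), and Ly6d with Ly6i was the farthest (-0.43).

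Within 500 kb of the span of the members on chromosome 15 the annotation lists 34 genes, of which 4 reached a mean of 10 CPM over all kept cells: Ly6d, Ly6e, Ly6a and Ly6c2. In CD8 T-like cells the neighbours Ly6e and Ly6a had ratios of 0.10 and -0.44. Over all kept cells Ly6a was at 910 and 759 CPM, Ly6e at 199 and 233 CPM, Ly6d at 126 and 132 CPM, Ly6c2 at 12.6 and 15.4 CPM and Ly6i at 5.51 and 6.32 CPM. The last 4 were higher over all cells in the library labelled NOD.Cxcl16-/-, although within macrophage-like and classical monocyte-like cells Ly6c2, Ly6e and Ly6i were lower. The libraries differ in their shares of the classes, with 0.607% and 1.81% of kept cells in the macrophage-like class and 0.784% and 1.75% in the plasma cell-like class.

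Other genes of the Ly6/uPAR superfamily were mostly absent from these cells: of 34, at most 2 were measured in any large class. Plaur, the urokinase receptor, stood at 469 CPM (3837 UMIs) and 531 CPM (5461 UMIs) in B-like cells, a ratio of 0.18 (0.12 to 0.24), and at 52.1 and 73.9 CPM in CD8 T-like cells, a ratio of 0.50 (0.37 to 0.64). Cd59a, an inhibitor of complement, was at 320 and 186 CPM in plasmacytoid DC-like cells. Ly6k was at 33.9 and 26.3 CPM in plasma cell-like and 13.0 and 11.2 CPM in B-like cells. Ly6g, the marker of neutrophils, had 21 and 53 UMIs over all cells, 10 and 30 of them in plasma cell-like cells. Lynx1, Lypd1, Lypd6b, Ly6g5b and Cd59b had between 23 and 107 UMIs over all cells of WT NOD and between 31 and 177 in the other.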

How the data were processed

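Each deposited matrix gives UMI counts of genes by barcodes, which the authors left unnormalised. Per the file headers and the submitters' processing notes they were made with Cell Ranger 7.0.1 on the build mm10; the annotation used and the handling of intronic reads are not given in the sources used here. Of the 32285 gene IDs, 32158 were found in GENCODE M21, which gave the coordinates.

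Barcodes with at least 500 genes and at most 10% mitochondrial UMIs were kept. The barcodes with the highest simulated-doublet scores were removed, at a fixed 0.8% for each 1000 barcodes (11.1% and 8.44%). Cells were put in classes one by one by detected marker genes, with 2 to 4 markers required by class, a defining marker for most of the smaller classes, and a limit on markers of other lineages. The thresholds were set, with the data in view, by how the gated cells fell into clusters, without regard to Ly6 values. Clusters came from Leiden clustering (scanpy 1.11.5, resolution 1, 50 components, 20 neighbours, 2000 variable genes) without the Ly6 genes. UMIs were summed by class and library and scaled to CPM. Levels carry exact Poisson, shares exact Clopper-Pearson and ratios exact conditional binomial intervals (scipy 1.17.1), for counting error only. A ratio is given where each library has at least 4 UMIs, and a count of 0 allows up to 3 counts. The scripts were tested on simulated data. Each group is 1 library, so no p-value is given.

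The members and the lists were chosen with earlier results of these data known. Named genes were the 5 members, superfamily genes with 50 UMIs or more, the 10 most even of the genes at least 1.5-fold lower in every large class, the 3 genes most like each member, and the 3 lowest and 2 highest of each interferon list. Ifi214, the remaining 1 of those 11 genes, and Rpl35 were named after their values were seen. A T-cell state that had been planned is not reported here. Alternatives covered the filters, the totals, the gates and the thinning.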

Additional observations from a re-analysis of the deposited data

Results flagged for a closer look

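In these results Ly6a, Ly6e and Ly6d each had ratios with intervals above 0 in some cell classes and below 0 in others. Ly6c2 did so too, but was left out here for its few UMIs. Its ratio was 2.04 (0.76 to 3.51) in CD8 T-like cells, from 7 and 22 UMIs, and -2.05 (-2.63 to -1.49) in macrophage-like cells. The differences between classes were not tested, and none has a replicate library.

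Ly6a had a log2 ratio (library labelled NOD.Cxcl16-/- over WT NOD) of 0.37 in γδ T-like cells, opposite in sign to CD8 T-like (-0.44), CD4 T-like (-0.57), Treg-like (-0.51) and B-like cells (-0.59). It was also opposite to plasma cell-like (-0.86), macrophage-like (-1.21), classical monocyte-like (-1.15) and migratory DC-like cells (-0.30). With classes from clusters the γδ T-like ratio was 0.06. Of the classes with under 50 cells in a library, cDC1-like (0.60) and ILC2-like cells (0.33) also had ratios above 0. The ratio was below 0 in cDC2-like (-0.72), plasmacytoid DC-like (-0.60) and non-classical monocyte-like cells (-0.77).

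Ly6e had a ratio above 0 in CD8 T-like (0.10), CD4 T-like (0.26), Treg-like (0.42) and plasma cell-like cells (0.19) and of -0.90 in macrophage-like cells.

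Ly6d, which these classes hold at a few CPM, had a ratio of 1.22 in CD4 T-like and -0.47 in CD8 T-like cells. In the library labelled NOD.Cxcl16-/- 1 cell held 81.3% of the Ly6d UMIs of CD4 T-like and 1 cell 75.8% of those of CD8 T-like cells.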

How the results depend on the processing

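No paired analysis was possible because each group has 1 library, and for the same reason no replicate could be left out. Leaving out clusters of few UMIs and the 1.3-fold limit were chosen after seeing the data. Over 11 alternatives for each large class the Ly6a ratio stayed below 0 throughout, between -0.60 and -0.41 in CD8 T-like, -0.79 and -0.50 in CD4 T-like, -0.56 and -0.36 in Treg-like and -0.75 and -0.58 in B-like cells. It moved beyond its counting interval in CD8 T-like cells with classes from clusters (-0.59), without cycling cells (-0.57) and with CPM averaged over cells (-0.60). Averaging each cell's CPM also moved it in CD4 T-like (-0.79) and B-like cells (-0.75), thinning in B-like cells (-0.73) and keeping doublets in Treg-like cells (-0.36). In macrophage-like cells classes from clusters gave -0.43 in place of -1.21, in γδ T-like cells 0.06 in place of 0.37, and in plasma cell-like cells -0.46 in place of -0.86. The count of genes lower in every large class, 11, became 3 at 2-fold, 4 with a mean of 30 CPM and 20 at 1.3-fold, and between 8 and 14 under the other alternatives. Ly6a was among them at 1.3-fold only.

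Signs turned for other members. Ly6e turned with each cell's CPM averaged in CD8 T-like (-0.079), CD4 T-like (-0.069) and plasma cell-like cells (-0.10). In Treg-like cells it turned with thinning (-0.010), classes from clusters (-0.034) and without cycling cells (-0.070), and in plasma cell-like cells with thinning (-0.19), without immunoglobulin and T-cell receptor genes in the total (-0.047) and with a median-ratio size factor (-0.14). Ly6c2 turned in macrophage-like cells without cycling cells (0.32), and Ly6d in CD4 T-like cells with 1 more marker (-1.25) and with CPM averaged over cells (-0.71). The cause was not tested, except that 1 cell held 74 of 91 Ly6d UMIs of these CD4 T-like cells. Depth limits Ly6c2 and Ly6i in lymphocytes, where counts were near 0.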

Other observations

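Cells that fell in no class, 4248 and 3077, had 1179 CPM of Ly6a (1163 to 1196) in the WT NOD library and 937 CPM (926 to 948) in the other. In these cells Ly6d stood at 75.7 and 75.6 CPM, Ly6e at 191 and 241 CPM, Ly6c2 at 16.4 and 20.6 CPM and Ly6i at 8.89 and 10.3 CPM. Their median depths were 2417.5 and 4393 UMIs per cell.

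Cluster 4, which held 1127 and 203 cells at 0.399 of the median UMI count of their libraries, had a Ly6a ratio of -0.91 (-1.03 to -0.79), from 1420 and 756 CPM.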
